A study of Mus musculus with 2 samples.

Results

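Wnt signalling was described here through 39 genes: 13 ligands, 14 receptors, 7 inhibitors, 3 nuclear factors and 2 target genes. A gene was taken in when it was on a list of named Wnt genes and had at least 1 probe set annotated with its symbol alone, a probe set being a group of short probes read as a single signal. All 39 genes were found, with 87 probe sets, among 18193 genes on the array. RNA came from primary keratinocytes cultured from the skin of newborn C57BL/6 mice. The control culture is titled MED1flox/flox, while its source names wild-type mice. The other culture came from K5Cre+;MED1flox/flox mice (MED1epi-/-), in which the keratin 5 promoter drives Cre. MED1 is thus targeted in cells in which that promoter is or was active, and in their descendants. MED1 is a subunit of Mediator, which links transcription factors to RNA polymerase II. The number of animals behind each culture is not given in the sources used here.

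Wnt proteins are secreted, lipid-modified ligands that bind Frizzled receptors. Together with the coreceptors Lrp5 and Lrp6 they stabilise beta-catenin, which enters the nucleus and acts with TCF and LEF proteins on target genes. Other Wnt proteins act without beta-catenin, on cell polarity and movement. In skin, Wnt signalling is known for starting hair follicles and for its role in basal epidermal cells.

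Each culture was hybridised to 1 array, so no value below has a replicate, and no test or p-value between cultures was possible. Precision is limited by the number of arrays. The log2 ratios between the arrays, read from different probe sets of 1 gene, differed with an SD of 0.31 log2 units (1.24-fold), pooled over 4916 genes. This SD is the spread between probe sets named below. It comes from the same arrays and holds no variation between cultures or animals. Low signals were raised to a floor of 67.7, the median signal of the arrays, and a gene below it on 1 array has only a bound, written "at least". The targeted gene goes against its label: Med1 read 462.7 in the control culture and 1039 in the other, and all 7 of its probe sets were higher there. The part of the gene that was deleted and the positions of the probe sets were not used here, so these values check nothing about the deletion, and directions below follow the label MED1-null. Sex-linked RNA differed too, with Xist at 5461 on the control array and 55.7 on the other. Differences that go with sex cannot be told apart here from differences that go with the label. Of 10 keratinocyte markers, 9 were above the floor on both arrays. The basal keratins Krt5 and Krt14 read 26821 and 32905 in the control culture, while the suprabasal keratins were low, with Krt10 at 194.6 and 251.3 and Krt1 below the floor on both arrays.

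Most Wnt genes above the floor on both arrays read alike. Of the 39, 31 reached the floor on either array and 26 on both. The ligand Wnt10a was over 2-fold higher in the culture labelled MED1-null and the ligand Wnt5a over 2-fold lower, and 24 others measured on both arrays lay within 2-fold. The remaining 5 (Wnt3, Fzd8, Lgr5, Nkd1 and Lef1) were under the floor on 1 array, with bounds below 2-fold, so that the size of their differences is not known. Of the 11621 genes measured on either array, 1.63% reached 2-fold on the higher side and 2.23% on the lower (3.86% together), against 2 of 31 Wnt genes, or 6.45%. The split over all genes was 190 higher and 259 lower, and 144 higher and 322 lower after a lowess curve was subtracted. Of the 26 Wnt genes above the floor on both arrays, 15 (57.7%) had a difference smaller than that SD between probe sets. A difference beyond that SD may still be variation between cultures, which these arrays cannot show. With bounds counted at their least size, the count was 18 of the 31 (58.1%), beside 60.6% of all genes. A bound can hide a larger difference, as for Lgr5. The median log2 ratio of the 31, culture labelled MED1-null over control, was -0.05, beside 0.06 for all genes. A floor at the 75th percentile left 13 members above it and gave a median of 0.01. Of the 31, 18 had a ratio below 0 and 13 above, while 57.1% of all genes lay above 0. Among the 52 Wnt probe sets that reached the floor, 1 was 2-fold or more higher and 3 were 2-fold or more lower, beside 3.9% beyond 2-fold among all probe sets.

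**Figure D1:**
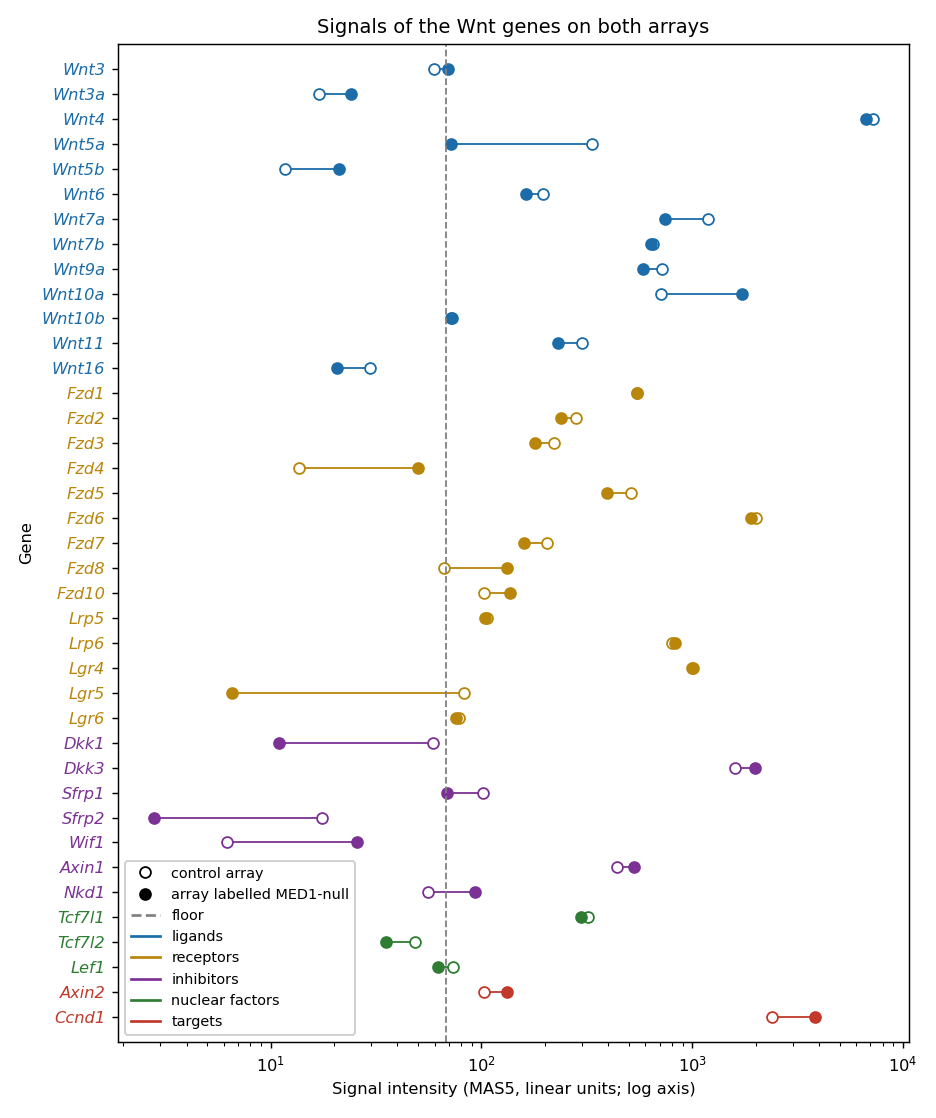
Signal of each of the 39 Wnt genes (horizontal log axis, MAS5 signal in linear units) on the control array (open circles) and the culture labelled MED1-null (filled circles), coloured by role, with the floor of 67.7 as a dashed line. Wnt5a (333.5 and 71.6) and Wnt10a (713.3 and 1729.9) are the only genes above the floor on both arrays whose circles lie at least 2-fold apart.

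Among the ligands, Wnt5a and Wnt10a stood on opposite sides beyond 2-fold, and Wnt7a (1.60-fold lower) and Wnt11 (1.30-fold lower) were the next farthest from 0. Of 13 ligands, 10 reached the floor, 7 with a log2 ratio below 0 and 3 above. Their median was -0.19, and it was -0.26, -0.35 and -0.24 under the 3 other scalings of the arrays. Those scalings also lowered the median of all genes, from 0.06 to -0.004, 0.02 and 0.01. Staying below 0 is therefore no separate support for the direction. Wnt5a, the best-known ligand of the branch that works without beta-catenin, had the widest difference among the 26 genes above the floor on both arrays. Its strongest probe set read 333.5 for the control culture and 71.6 for the one labelled MED1-null, 4.66-fold lower (log2 ratio -2.22). That second signal lies just above the floor. A second probe set of Wnt5a read 279.7 and 123.2, 2.27-fold lower, so that both probe sets above the floor pointed the same way with different sizes. The 2 remaining probe sets, at 51.7 and 4.2 and at 18.7 and 22.3, lay below the floor on both arrays. Wnt5a ranked 16 from the lowest of the 11621 genes by log2 ratio. Under a floor of 434.6, the 75th percentile, Wnt5a was not measured on either array and no Wnt gene was 2-fold lower.

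Fibroblasts, which are known to express Wnt5a in the dermis, can be carried into keratinocyte cultures, and their markers were lower on the same array. Of 14 fibroblast markers, 13 had a probe set of their own and 8 reached the floor, 7 of them with a log2 ratio below 0 and a median of -0.52. Their summed signal over 13 genes was 3628 in the control culture and 1646 in the other, and 918.9 and 612.4 without Sparc. These sums include signals below the floor. Sparc, a matrix-binding protein, read 2709 and 1034, and the fibroblast collagen gene Col3a1 read 120.8 and 35.5. Another fibroblast collagen gene, Col1a2, went the other way, at 80.3 and 115.3 (1.44-fold higher), and 4 of the 8 markers were above the floor on both arrays. Col1a1, Lum, Dpt, Pdgfrb and Postn lay below the floor on both arrays. All 10 melanocyte markers were above the floor on both, 8 of them lower and 2 higher, with a summed signal of 28849 and 20928. Of the 10, 5 differed by less than the SD between probe sets. The part of these cell types in the Wnt5a difference was not tested, and in bulk RNA fewer cells of a type and less RNA per cell cannot be told apart.

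Wnt10a, a ligand that acts through beta-catenin and is needed for teeth, hair and other skin appendages, was the counterpart on the higher side. Its only probe set read 713.3 and 1729.9, which is 2.43-fold higher in the culture labelled MED1-null (log2 ratio 1.28). The gene ranked 73 from the highest of the 11621 genes. It was the only Wnt gene counted as higher under each of the 3 rescalings and with the floor at the 75th percentile. No other probe set of the gene bears on the value. Its paralog Wnt10b lay near the floor, at 71.8 and 72.4. Hair follicle markers differed as well, in both directions: of 9 with a probe set, 6 reached the floor, 4 with a log2 ratio above 0. The companion layer keratin Krt75 read 194.7 and 630.6 (3.24-fold higher), while the follicle transcription factor Lhx2 read 181.8 and 40.7 (at least 2.69-fold lower). The summed signal of the list was 30022 and 36233, and 3388 and 5400.2 without Krt17. Most of the sums without Krt17 came from Sox9, at 2458 and 4207, which is also counted among the further Wnt pathway genes below. All of these sums include signals below the floor. The part of the follicle markers in the Wnt10a difference was not tested.

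The remaining ligands differed less. Wnt4, a ligand made by basal keratinocytes, read 7190 and 6641 with its strongest probe set and 1656 and 1384 with the other. Both were slightly lower in the culture labelled MED1-null, by less than the 1.24-fold spread between probe sets. Wnt7a read 1187 and 743.6, which is 1.60-fold lower, but a weaker probe set went the other way, from 26.5, below the floor, to 83.2. Wnt7b, a ligand close in sequence to Wnt7a, read 649.6 and 639.9 (1.02-fold lower), and its second probe set read 224.0 and 165.4 (1.35-fold lower). Wnt9a read 716.5 and 583.4 (1.23-fold lower) and Wnt6 196.7 and 163.1 (1.21-fold lower). Apart from Wnt7a and the second probe set of Wnt7b, these differences lay within the spread between probe sets. Wnt3, a ligand that acts through beta-catenin, was at the floor with 59.7 and 69.8, and Wnt3a, Wnt5b and Wnt16 lay below it on both arrays.

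Wnt11, which acts on cell movement, read 299.5 and 229.8, 1.30-fold lower in the culture labelled MED1-null. Promoter windows from RefSeq, GRCm38.p6, each of 250 bases before to 50 after a transcription start, were held for 25 of the 39 genes, and none of these windows belonged to Wnt5a, Wnt10a or Ccnd1. They were searched on both strands for CTTTGAT and CTTTGAA, letters that TCF and LEF proteins are known to bind. Of the 32 windows of Wnt genes, 3 held a match (9.38%), at Wnt5b, Wnt11 and Dkk1, beside 8.65% of all 32851 windows. A window of Wnt11, at chr7:98834862-98835161 on the + strand, is shown because it is the only one with a match whose gene reached the floor. The other window of Wnt11 held no match. The capitals mark CTTTGAT read on the opposite strand, starting at position -51 from the transcription start.
Wnt11: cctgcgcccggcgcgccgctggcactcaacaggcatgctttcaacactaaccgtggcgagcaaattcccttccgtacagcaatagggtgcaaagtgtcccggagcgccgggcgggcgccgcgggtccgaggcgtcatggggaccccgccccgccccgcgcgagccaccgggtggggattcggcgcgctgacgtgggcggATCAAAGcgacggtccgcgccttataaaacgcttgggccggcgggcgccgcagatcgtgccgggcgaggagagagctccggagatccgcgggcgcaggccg
A match is a description of the letters and not a binding site, and binding was not measured here.

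**Figure D2:**
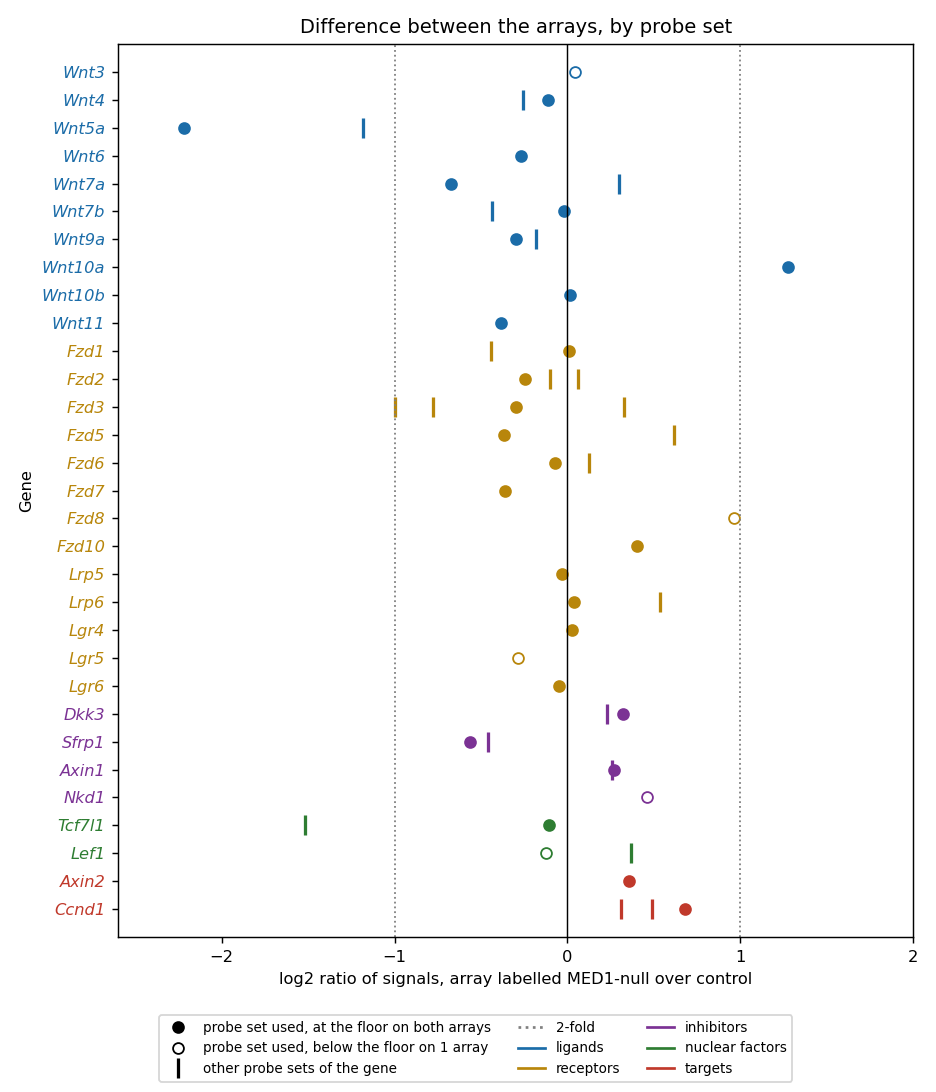
Log2 ratio of signals (culture labelled MED1-null over control, horizontal axis) for the 31 Wnt genes at the floor on either array, coloured by role. Circles are the strongest probe set, open where it lay below the floor on 1 array, ticks are the other probe sets at the floor, and dotted lines mark 2-fold. Wnt5a (-2.22) and Wnt10a (1.28) lie outside the lines, as does the second probe set of Tcf7l1 (-1.52).

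No receptor was counted as 2-fold apart, but Fzd8 and Lgr5 have only bounds, and Lgr5 was counted as lower with no floor or a floor at the 25th percentile. Of 14, 13 were at the floor, with 8 log2 ratios below 0, 5 above and a median of -0.05. That median was 0.01 when the 75th percentile was the floor. It stayed below 0 under the 3 rescalings, which also lowered the median of all genes, so this adds no support. Fzd8, a Frizzled receptor, came nearest: it read 66.6, under the floor, in the control culture and 132.1 in the other, at least 1.95-fold higher. Fzd6, known for its part in the orientation of hair follicles, was far above the floor and even, at 2007 and 1905, with a second probe set at 580.8 and 631.9. Fzd1 read 546.2 and 549.8, and the sign of its log2 ratio (0.01) turned below 0 under all 3 rescalings. The probe sets of Fzd5 disagreed, at 511.5 and 396.2 (1.29-fold lower) and at 129.9 and 198.7 (1.53-fold higher). Those of Fzd3, a receptor of the cell polarity branch, also went both ways. They read 222.2 and 180.4, 140.0 and 70.1, 115.9 and 66.3, and 66.7 and 84.8, from 2.00-fold lower to at least 1.25-fold higher. No direction can be given for either gene. Fzd2 read 281.1 and 237.5 (1.18-fold lower) with its strongest probe set, and the 2 others lay within that spread on both sides of 0. Fzd7 read 205.2 and 160.0 (1.28-fold lower) and Fzd10 103.4 and 136.5 (1.32-fold higher), both by a single probe set above the floor, while Fzd4 lay below the floor on both arrays.

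By their strongest probe sets the coreceptors of the beta-catenin branch were even. Lrp6 read 802.0 and 824.5 (1.03-fold higher), and the log2 ratio of this probe set (0.04) turned below 0 under all 3 rescalings, while a weaker one read 138.1 and 199.8 (1.45-fold higher). Lrp5 read 106.4 and 104.1. Lgr4, Lgr5 and Lgr6 are receptors for R-spondins, proteins that strengthen Wnt signals. Lgr4 read 994.5 and 1011, far above the floor and almost equal. Lgr6, a marker of stem cells of the upper follicle, stayed near the floor at 78.1 and 75.6. Lgr5, a marker of stem cells of the lower follicle, read 82.5 and 6.6, at least 1.22-fold lower. Since the second value is far below the floor, the size of the Lgr5 difference is not known.

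The inhibitors act outside and inside the cell. Of 7, 4 reached the floor, 3 with a log2 ratio above 0 and 1 below, and their median of 0.29 lay between 0.23 and 0.26 under the rescalings. Dkk3, a secreted protein of the Dickkopf family, read 1590 and 1983 (1.25-fold higher) and 960.5 and 1126 with its second probe set. Axin1, a scaffold of the complex that degrades beta-catenin, had 2 probe sets in close accord, 437.6 and 527.3 (1.20-fold higher) and 231.3 and 276.6 (1.20-fold higher). These differences are no larger than the spread between probe sets or close to it. Nkd1, which binds Dishevelled inside the cell, read 56.1 and 93.1, at least 1.38-fold higher. Its 3 other probe sets lay below the floor on both arrays and read the other way. They gave 63.3 and 49.4, 50.3 and 40.5, and 50.3 and 14.8. Sfrp1, a secreted protein that binds Wnt ligands, read 101.5 and 68.7 (1.48-fold lower), and a second probe set 93.2 and 47.0, at least 1.38-fold lower. Both values in the culture labelled MED1-null are close to the floor or under it. Dkk1, Sfrp2 and Wif1 lay below the floor on both arrays.

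The nuclear factors gave a mixed picture because probe sets differed. Tcf7l1, a repressor active in follicle stem cells, read 319.8 and 297.3 (1.08-fold lower) with its strongest probe set. Its second read 194.3 and 60.6, at least 2.87-fold lower. The 2 probe sets shared a direction but not a size, and Tcf7l1 counts as within 2-fold only by the first. Lef1, which drives Wnt target genes in the hair matrix, was near the floor, at 73.7 and 62.4 and at 24.8 and 87.2, with no direction in common. Tcf7l2 lay below the floor in all 4 probe sets.

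Both target genes were higher in the culture labelled MED1-null, also under the 3 rescalings, beside 57.1% of all genes with a log2 ratio above 0. Other genes often used to read Wnt activity went different ways. Nkd1 was at least 1.38-fold higher by 1 of 4 probe sets, Lgr5 at least 1.22-fold lower, and Lef1 had no direction in common. Ccnd1 encodes cyclin D1, which drives entry into the cell cycle and is a target of many other pathways too. Its 3 probe sets read 2397 and 3839, 1945 and 2413, and 1780 and 2495, which is 1.60-fold, 1.24-fold and 1.40-fold higher. All 3 were far above the floor and pointed the same way. Axin2, a widely used read-out of beta-catenin activity, read 103.3 and 132.1, 1.28-fold higher, from 1 probe set near the floor. At 1.5-fold, which 15.1% of all genes passed, 7.8% on the higher and 7.32% on the lower side, 5 of the 31 Wnt genes passed: Wnt10a, Ccnd1 and Fzd8 on the higher side and Wnt5a and Wnt7a on the lower side.

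**Figure D3:**
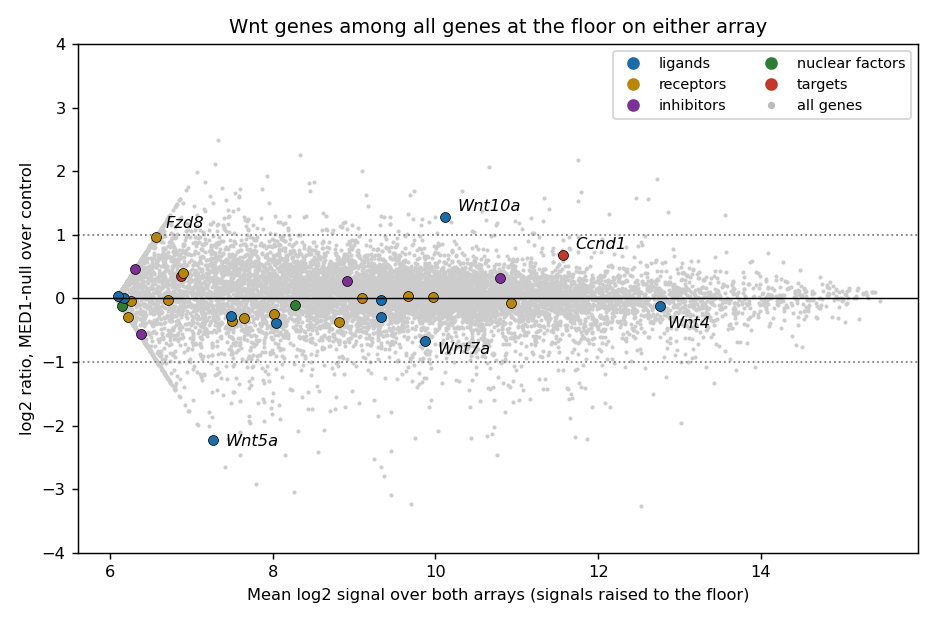
Log2 ratio (culture labelled MED1-null over control, vertical axis) against the mean log2 signal over both arrays, with signals raised to the floor, for the 11621 genes at the floor on either array (grey) and the 31 Wnt genes among them (coloured by role). The axis leaves out 2 genes beyond 4 log2 units; most Wnt genes lie within the dense band, with Wnt5a (-2.22) below it and Wnt10a (1.28) above it.

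How well a member was measured depended on its signal. On both arrays, 8 Wnt genes read at least 10 times the floor: Wnt4, Wnt7a, Wnt10a, Fzd6, Lrp6, Lgr4, Dkk3 and Ccnd1, with log2 ratios from -0.67 to 1.28. Another 10 stayed under 135.4, which is 2 times the floor, on both arrays, among them Axin2, Nkd1, Lef1 and Lgr5, genes often used to read Wnt activity. Among 17 members for which several probe sets reached the floor, 10 had probe sets that all pointed alike and 7 did not (Wnt7a, Fzd1, Fzd2, Fzd3, Fzd5, Fzd6 and Lef1). The pooled SD of log2 ratios between probe sets was 0.34 log2 units over 13 members with several at the floor on both arrays.

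Among further genes of the pathway, Apcdd1 alone was counted beyond 2-fold by its strongest probe set. Of 65 further Wnt pathway genes, 63 had a probe set and 41 reached the floor, 40 of them on both arrays. Of the 41, 1 was counted as 2-fold apart (2.44%, beside 3.86% of all genes), and 26 log2 ratios lay above 0 (63.4%, beside 57.1% of all genes) and 15 below, with a median of 0.03. Sfrp5, a secreted Wnt inhibitor, read 87.3 and 43.0 and has only a bound, at least 1.29-fold lower. Apcdd1, a Wnt inhibitor of the cell surface, read 153.1 and 329.5 (2.15-fold higher), with probe sets from 0.10 to 1.11 in log2 ratio. Beta-catenin itself, Ctnnb1, read 17867 and 17943. The genes next farthest from 0 were Sox9, a follicle transcription factor (2458 and 4207, 1.71-fold higher), and Daam1, a formin of the polarity branch (6013 and 3543, 1.70-fold lower). Probe sets ran from 0.18 to 1.03 in log2 ratio for Sox9 and from -1.13 to -0.76 for Daam1. Each of these genes thus had a weaker probe set beyond 2-fold. Porcn, the X-linked enzyme that attaches the lipid to Wnt proteins, read 1791 and 1060.1 (1.69-fold lower). Wls, which carries Wnt proteins to the cell surface, read 2766 and 2825. All 4 R-spondin genes, Rspo1 to Rspo4, lay below the floor on both arrays.

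**Figure D4:**
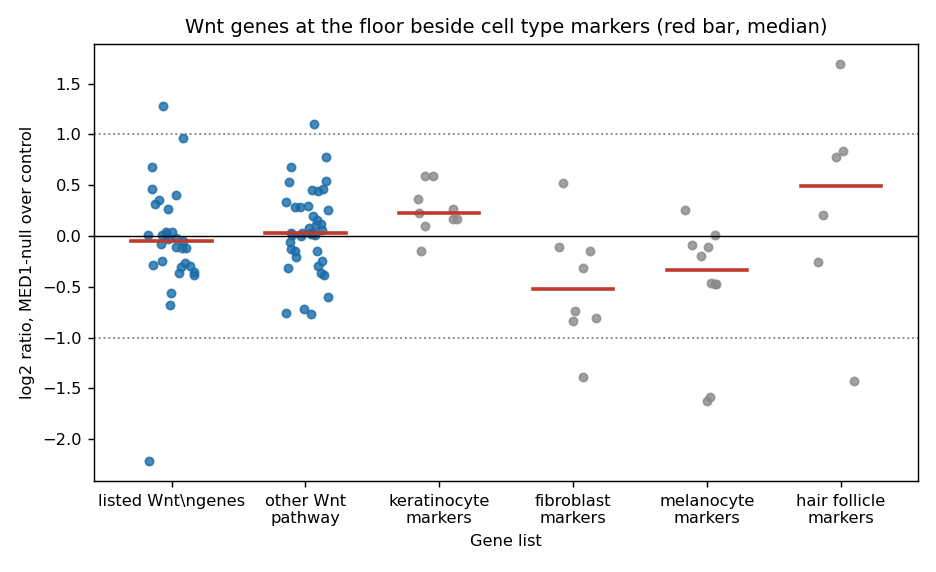
Log2 ratio (culture labelled MED1-null over control, vertical axis) of each measured gene in the Wnt list, the further Wnt pathway genes and the keratinocyte, fibroblast, melanocyte and hair follicle marker lists, with the median as a red bar and 2-fold as dotted lines. The Wnt median is -0.05 and that of the further pathway genes 0.03, beside 0.23 for keratinocyte, -0.52 for fibroblast, -0.33 for melanocyte and 0.49 for hair follicle markers.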

How the data were processed

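The authors deposited 1 linear signal intensity for each probe set, computed with MAS5, per the submitters' processing notes, in Affymetrix GeneChip Operating Software, per the design text. No software version is given in the sources used here. By the values, both arrays have a mean of 500.0 after trimming 2% of the probe sets at each end. Of 45101 probe sets, 34945 carried a single gene symbol in GEO's platform annotation, and all 39 members matched by Entrez ID to the RefSeq table of GRCm38.p6 with 0 symbols changed.

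Signals were raised to the pooled median of probe sets other than controls (67.7), log2 was taken, and each gene was read from its probe set of highest mean signal. Genes were counted at 2-fold. With 1 array per group there was no test. Every member at the floor on either array was named, and of the further pathway genes those beyond 2-fold and the 4 farthest from 0. Outside this rule, Sfrp5 was named because it has only a bound. Ctnnb1, Wls and the R-spondin genes were added after their values were seen. The members, lists and alternatives were chosen with earlier results of these data known. Alternatives were other floors, 3 rescalings (median ratio set to 0, quantile, lowess), the median over probe sets, no probe sets of shared sequence and a 1.5-fold threshold. The counting was tested on simulated data, with differences beyond 2-fold in genes far above the floor. That test does not cover genes near the floor or smaller differences. Python 3.11.15, pandas 2.3.3 and statsmodels 0.14.6 were used.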

Additional observations from a re-analysis of the deposited data

How the results depend on the processing

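Wnt10a was the single Wnt gene at least 2-fold higher, and Wnt5a the single one at least 2-fold lower, under the 3 rescalings, the median over probe sets and the exclusion of probe sets of shared sequence. With the floor at the 25th percentile there were 2 higher (Wnt10a and Fzd4) and 3 lower (Wnt5a, Lgr5 and Dkk1), with no floor 2 lower (Wnt5a and Lgr5), with the floor at the 75th percentile 0 lower, and at 1.5-fold 3 higher and 2 lower. By construction, a higher floor leaves fewer genes measured, and a lower floor or none no longer raises low signals such as that of Lgr5, whose log2 ratio was -2.19 at the 25th percentile and -3.64 with no floor. The median log2 ratio of the members was -0.15 after quantile normalization, and the cause was not tested. Over all genes, 1120 were higher and 934 lower with the floor at the 25th percentile, 49 and 106 at the 75th, 484 and 456 with no floor, and 906 and 851 at 1.5-fold. Of 227 single-gene values under the alternatives, 221 moved by less than the spread between probe sets and 6 by more, among them Wnt5a, at -1.70 with the median over probe sets. A sign changed in 15 of these values, in 7 genes whose log2 ratios were at most 0.37 from 0. No paired analysis was possible because each group holds 1 array. What limits these results is that number and, for genes near the floor, the signal over background. Further limits are that Xist differed along with the label and that the Med1 signal went against the label.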

Other observations

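Some Wnt genes lie next to each other in the mouse genome, by the order of protein-coding genes in RefSeq. On chromosome 1, Wnt6 and Wnt10a are direct neighbours. Wnt10a read 713.3 and 1729.9, while Wnt6 read 196.7 and 163.1, a difference within the spread between probe sets. On chromosome 11, Wnt3a lies beside Wnt9a and Wnt3 beside Wnt9b, and of these Wnt9a alone was above the floor on both arrays. On chromosome 14, Erc2, a neighbour of Wnt5a that encodes a synaptic scaffold protein, read 162.3 and 62.6, at least 2.40-fold lower in the culture labelled MED1-null, from a single probe set. Cacna2d3, on the other side of Wnt5a, lay below the floor on both arrays. On chromosome 6, Fbln2, which encodes a matrix protein and lies beside Wnt7a, read 1068 and 591.2 (1.81-fold lower). These genes were looked at after the values of Wnt5a, Wnt7a and Wnt10a were known, and no test was possible.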
